A study of Rattus norvegicus with 46 samples.

Results

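Kruppel-like factors are described here in cardiomyocytes of adult male Wistar rats that were given single fatty acids. The 9 members, Klf2, Klf3, Klf4, Klf5, Klf6, Klf9, Klf10, Klf13 and Klf15, were chosen by name among the 22517 probes of an Illumina rat array, and each had exactly 1 probe. The groups were octanoate (8 arrays), palmitate (8), stearate (8), oleate (8), linoleate (7) and the control (7). Wildtype cells were kept overnight on laminin in serum-free medium, after which each fatty acid was given at 0.4 mM for 24 h on defatted bovine serum albumin (BSA). The control had 1% BSA alone, and all groups carried that BSA. Octanoate is a medium-chain saturated fatty acid, and palmitate and stearate are long-chain saturated ones. Oleate has the chain length of stearate with 1 double bond, and linoleate has 1 double bond more than oleate. Whether replicates came from separate animals or from separate cultures is not given in the labels, and the p-values therefore cover the spread among these arrays alone, part of which may be technical.

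Kruppel-like factors are transcription factors whose zinc fingers at the carboxyl end bind GC-rich DNA, above all GC boxes and CACCC boxes. Their amino-terminal parts differ and recruit either coactivators or corepressors, so members can act on the same sites with opposite outcome. In heart muscle the family is known for control of substrate use (KLF15, KLF5), of growth of the muscle cell (KLF15, KLF4, KLF10) and of development (KLF13), mostly from work in mice. Several members, KLF4 and KLF6 among them, are also known as genes that respond early to growth factors and stress.

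Upstream sequence is shown for the members whose RefSeq start lies at the outer end of the gene, which are Klf6 and Klf5, both higher under octanoate, and Klf9, which passed the test in none of the 9 comparisons with quantile normalization, all arrays and no block. RefSeq held a promoter window for 6 of the 9 members, and for 3 of those (Klf3, Klf4 and Klf15) the window lay inside the gene and is not printed. The 250 bases before each start follow, 5′ to 3′ on the strand of the gene, from RefSeq's GRCr8 build. The Klf6 stretch is chr17:69458479-69458728 on the minus strand, the Klf5 stretch chr15:82471831-82472080 on the plus strand and the Klf9 stretch chr1:230126396-230126645 on the plus strand. Capitals mark the GC box, spelled GGGCGG, and the boxes named for their letters, CACCC and, for the factor NF-Y, CCAAT. Each was searched on both strands.
Klf6: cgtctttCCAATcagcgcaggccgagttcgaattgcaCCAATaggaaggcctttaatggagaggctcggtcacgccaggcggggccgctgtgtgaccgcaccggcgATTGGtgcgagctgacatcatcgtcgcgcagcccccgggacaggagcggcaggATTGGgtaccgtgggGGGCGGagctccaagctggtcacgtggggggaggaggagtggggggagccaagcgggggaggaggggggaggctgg
Klf5: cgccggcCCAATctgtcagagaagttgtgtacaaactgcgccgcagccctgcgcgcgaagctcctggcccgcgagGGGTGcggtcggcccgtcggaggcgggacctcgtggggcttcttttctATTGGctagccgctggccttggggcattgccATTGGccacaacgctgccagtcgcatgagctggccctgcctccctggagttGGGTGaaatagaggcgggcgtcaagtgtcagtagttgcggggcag
Klf9: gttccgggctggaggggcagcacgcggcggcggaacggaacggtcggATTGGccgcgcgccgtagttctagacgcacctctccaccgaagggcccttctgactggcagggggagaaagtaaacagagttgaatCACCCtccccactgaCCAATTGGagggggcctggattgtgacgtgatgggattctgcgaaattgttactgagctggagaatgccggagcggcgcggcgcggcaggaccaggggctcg

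The Klf6 stretch was 67.2% G or C and held 4 CCAAT boxes and 1 GC box. The Klf5 stretch was 65.2% G or C and held 3 CCAAT boxes and 2 CACCC boxes, and the Klf9 stretch was 63.6% G or C and held 3 CCAAT boxes, a pair of which overlap, and 1 CACCC box. Of 27457 rat promoter stretches of the same length, 34.3% held a CCAAT box, 32.4% a GC box and 49.4% a CACCC box. The Klf6 stretch also held 1 E-box (CACGTG), found in 5.8% of all stretches, and the Klf9 stretch 1 AP-1 site (TGANTCA), found in 6.4%. A match describes the letters in this window and is not a measured binding site.

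A probe was called detected on an array at a detection p-value under 0.01, and 7 of the 9 members passed the filter of detection on at least 7 arrays, together with 7175 other genes. Klf5, Klf6 and Klf9 were detected on all 46 arrays, Klf4 and Klf13 on 44, Klf15 on 33 and Klf10 on 19. Klf6, Klf9, Klf10 and Klf13 stand on the array under the older names Copeb, Bteb1, Tieg and LOC499171. Klf2, a factor of blood vessel endothelium and lymphocytes, was detected on 0 of 46 arrays, with deposited intensities between 130 and 239. Klf3, a repressor that works through CtBP proteins, was also detected on 0 of 46, at intensities between 119 and 229. For neither was a level measured in any group, and neither entered a test. Values below are normalized intensities on the log2 scale, and levels are compared between groups and never between probes.

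Between 3090 and 7886 probes (13.7% to 35.02%) were detected per array, with median intensities of 134.9 to 230.2. Heart muscle markers were present, 13 of 14 passing the filter. Of 10 endothelial markers 8 were on the array and 0 passed the filter, the highest of them (Egfl7) being detected on 4 arrays. Of 10 fibroblast markers 6 passed, among them Dcn and Ddr2 on all 46 arrays, and the 4 adipocyte markers were detected on at most 1 array. The stearate array numbered 4 went against its label. Pdk4, a fatty acid response gene, had a level of 7.48 there, against 11.18 to 12.91 on the other stearate arrays and 6.21 to 8.16 on control arrays 1 to 3 and 5 to 7, and Plin2 (8.79 against 11.63 to 12.62) stood likewise below the other stearate arrays. The octanoate, palmitate, oleate and linoleate arrays numbered 4 also stood apart, with the collagen gene Col1a2 at 6.44 to 6.83, against at least 8.57 on the other arrays of those groups. Results that rest on arrays numbered 4 are given with and without them.

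Against control, 4 of 7 tested members passed under octanoate, 3 under palmitate, 3 under stearate, 0 under oleate and 0 under linoleate. Klf6 was higher under all 3 saturated fatty acids, Klf4 under octanoate and palmitate, Klf5 under octanoate and Klf10 under palmitate and stearate, while Klf15 was lower under octanoate and stearate. The background is the share of all 7182 tested genes past the same threshold, an adjusted p under 0.05: 24.7% under octanoate, 11.1% under palmitate, 13.1% under stearate, 0.571% under oleate (0.515% higher, 0.0557% lower) and 0.473% under linoleate (0.334% higher, 0.139% lower). Under octanoate 3 members were higher, against 11.6% of all genes, and 1 was lower, against 13.1%. Under palmitate 3 were higher and 0 lower, against 5.3% and 5.76% of all genes, and under stearate 2 were higher and 1 lower, against 4.19% and 8.91%. As a description, the median log2 change of the 7 tested members was 0.56 under octanoate, 0.75 under palmitate, 0.66 under stearate, -0.12 under oleate and -0.02 under linoleate, beside medians over all genes between -0.06 and -0.01. For 2 members under octanoate, 1 under palmitate and 1 under stearate the arrays did not overlap those of the control, against 6.36%, 2.78% and 1.75% of all genes. Under oleate and linoleate this held for 0 members, against 0.251% and 0.306%. All 5 comparisons share the 7 control arrays. In the F test of any fatty acid against control, 5 members passed (Klf4, Klf5, Klf6, Klf10 and Klf15), against 28.8% of all genes.

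**Figure D1:**
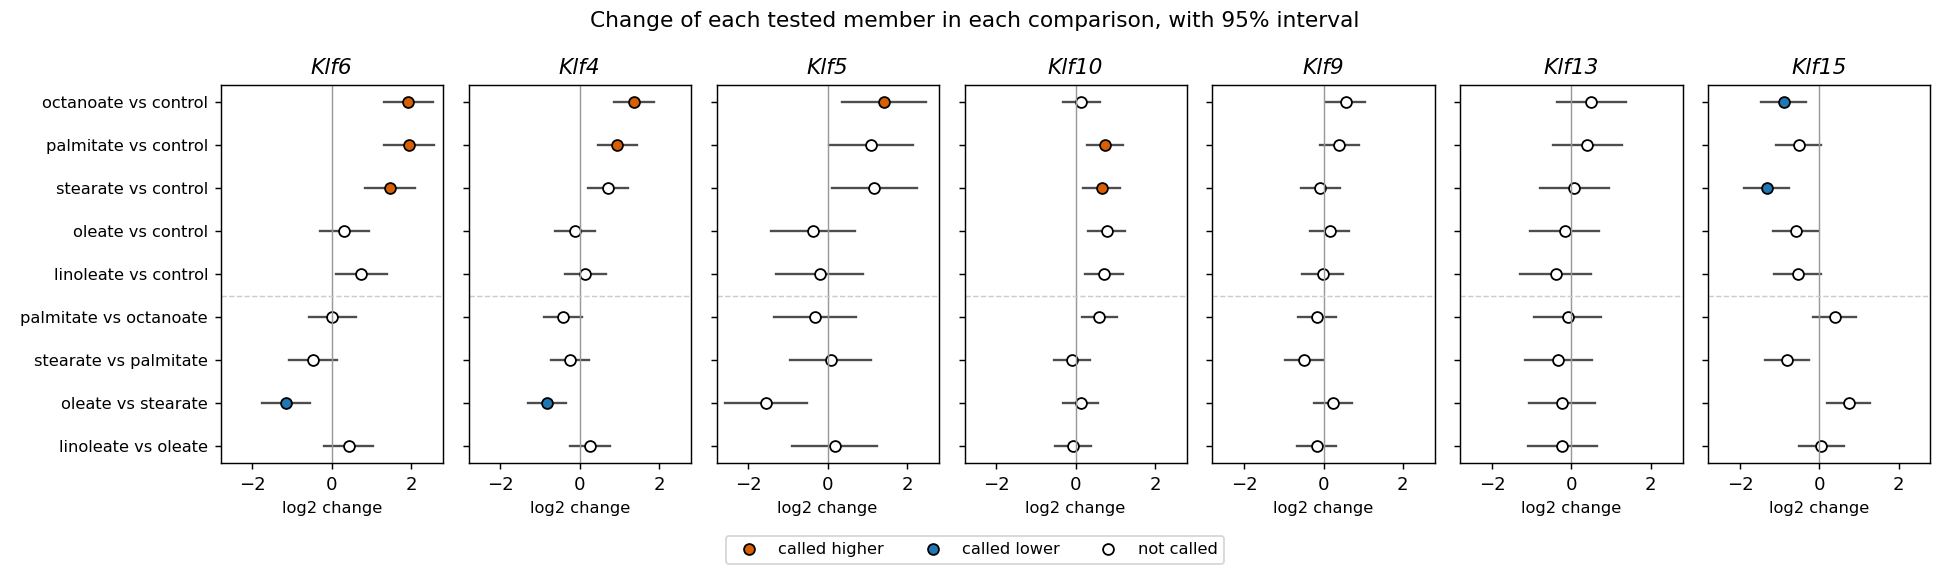
Log2 change of each tested member (panels) in the 5 comparisons with control and, under the dashed line, the 4 comparisons between fatty acids. Points are estimates, bars 95% intervals, and filled points passed the test. Klf6 lies at 1.93, 1.95 and 1.47 under octanoate, palmitate and stearate, above its values of 0.32 under oleate and 0.74 under linoleate.

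Klf6, a widely expressed activator of early stress and TGF-beta responses known for roles in fibrosis and as a tumour suppressor, had the largest rises of the family. Its level ran from 10.64 over a median of 11.17 to 11.95 under octanoate, and from 10.64 over 11.28 to 11.95 under palmitate. Under stearate it ran from 10.27 over 10.93 to 11.37, and in control arrays from 8.14 over 9.61 to 10.48. Every octanoate and every palmitate array was above every control array, while the stearate range overlapped the control range through the highest control array. The rise over control was 1.93 ± 0.31 (SE) under octanoate (3.81-fold, adjusted p = 1.123e-05) and 1.95 ± 0.31 under palmitate (3.85-fold, adjusted p = 2.298e-05). Under stearate it was 1.47 ± 0.31 (2.77-fold, adjusted p = 0.001105). Within arrays numbered 1 to 4 alone the changes of Klf6 were 2.12, 2.09 and 1.85 under octanoate, palmitate and stearate (adjusted p of 0.0185, 0.0224 and 0.0382). Within arrays numbered 5 to 8 they were 1.64, 1.70 and 0.99 (adjusted p of 0.00295, 0.00687 and 0.0600), so that the stearate change did not pass there.

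Under oleate and linoleate Klf6 did not pass the test. It ran from 8.89 over 9.60 to 11.21 under oleate and from 9.31 over 9.75 to 11.63 under linoleate, both overlapping control. The highest value of both groups was the array numbered 4. The changes against control were 0.32 with a 95% interval of -0.31 to 0.94 under oleate (adjusted p = 1.00) and 0.74 with an interval of 0.10 to 1.38 under linoleate (adjusted p = 0.645). Within arrays numbered 5 to 8 the oleate change was -0.42 and the linoleate change 0.15, against 0.95 and 1.18 within arrays numbered 1 to 4, and 0 of these 4 values passed. In the order of its levels Klf6 was highest under palmitate, then octanoate, stearate, linoleate and oleate, and lowest in control. No neighbours in that order passed the test (adjusted p of 0.204 to 1.00). The nearest were stearate and linoleate, 0.73 apart with a 95% interval of 0.11 to 1.35.

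Klf4, an early stress-responsive factor that limits growth of the heart muscle cell in mice and is known as a pluripotency factor, rose under octanoate and palmitate. Its level ran from 9.14 over 9.59 to 10.63 under octanoate, from 8.54 over 9.31 to 9.72 under palmitate and from 8.51 over 8.94 to 9.52 under stearate. Control arrays ran from 7.84 over 8.22 to 8.82. Octanoate arrays all lay above the control arrays, and palmitate and stearate arrays overlapped them. The rise was 1.38 ± 0.25 under octanoate (2.59-fold, adjusted p = 7.07e-05) and 0.95 ± 0.25 under palmitate (1.94-fold, adjusted p = 0.0088). Within arrays numbered 5 to 8 both changes of Klf4 passed (1.62 and 1.16, adjusted p of 0.0016 and 0.0429), and within arrays numbered 1 to 4 neither did (1.14 and 0.76, adjusted p of 0.0509 and 0.239). Stearate differed by 0.71 ± 0.25 (95% interval 0.20 to 1.21), with an adjusted p of 0.0522, which became 0.0358 to 0.0455 without control array 1, 3 or 6 or stearate array 8.

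For Klf4, oleate (7.16 to 9.11, median 8.28) and linoleate (7.86 to 9.74, median 8.22) overlapped the control range. The changes were -0.12 (95% interval -0.62 to 0.38) and 0.14 (-0.38 to 0.66). As for Klf6, the highest oleate and linoleate values were those of the arrays numbered 4. The order of levels was octanoate, palmitate, stearate, linoleate, control and oleate, and no neighbours passed the test (adjusted p of 0.225 to 1.00). The nearest to it were stearate and linoleate, 0.57 apart with a 95% interval of 0.06 to 1.07.

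Klf5, which in mouse heart muscle acts on the gene of the fatty acid receptor PPARalpha and in smooth muscle drives growth, rose under octanoate by 1.42 ± 0.53 (2.68-fold, adjusted p = 0.0422). It ran from 10.88 over 12.72 to 13.95 under octanoate and from 9.38 over 11.02 to 12.16 in control arrays, and the groups overlapped. The call was lost (change of 1.16 to 1.43, adjusted p of 0.0541 to 0.110) when any of 9 arrays was left out, which were control arrays 1, 2, 3 and 4 and octanoate arrays 3, 5, 6, 7 and 8. Palmitate (10.67 to 13.06, median 12.34) differed from control by 1.10 (95% interval 0.04 to 2.16, adjusted p = 0.177). Stearate (9.73 to 13.35, median 12.61) differed by 1.18 (0.12 to 2.24, adjusted p = 0.138), and by 1.53 with an adjusted p of 0.0336 without the array numbered 4, which was its lowest. Oleate (9.05 to 11.61) and linoleate (9.60 to 11.88) differed by -0.37 and -0.19, and neither passed.

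**Figure D2:**
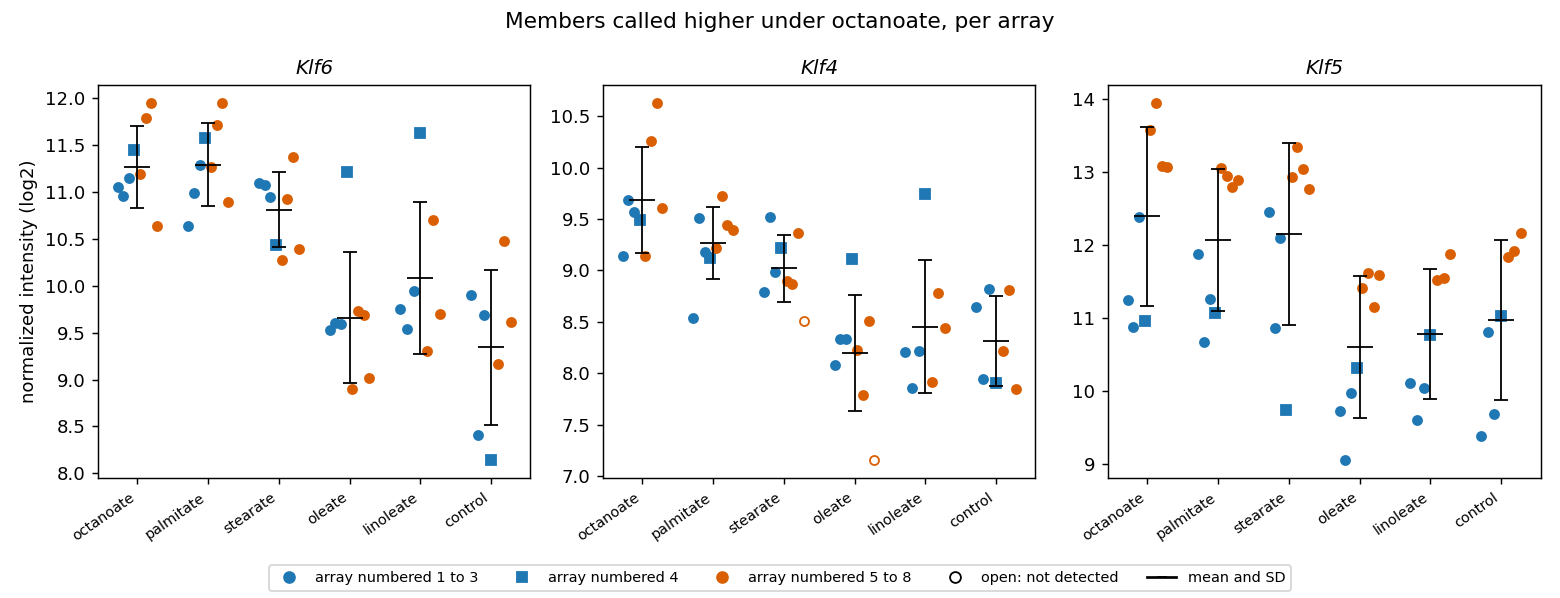
Normalized intensity (log2) of Klf6, Klf4 and Klf5 on each array by group. Black bars are group means with SD, colour separates arrays numbered 1 to 4 from those numbered 5 to 8, squares are the arrays numbered 4, and open points were not detected. Klf6 and Klf4 arrays under octanoate lie above all control arrays, and Klf5 splits by array number in each of the 6 groups.

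Klf5 also differed by array number. In each of the 6 groups every array numbered 5 to 8 was above every array numbered 1 to 4, which was also so for Klf13 and for 0.237% of all genes tested, a split that was noticed in the data, while 0.0418% of genes and 0 members split the other way. Under octanoate the mean of arrays 5 to 8 was 13.42, against 11.36 for arrays 1 to 4. In control the means were 11.97 and 10.22. Within arrays numbered 5 to 8 Klf5 was higher under octanoate (1.45 ± 0.19, adjusted p = 1.388e-05), palmitate (0.96 ± 0.19, adjusted p = 0.00307) and stearate (1.05 ± 0.19, adjusted p = 9.678e-04). Within arrays numbered 1 to 4 the same changes were 1.14, 1.00 and 1.06, with adjusted p of 0.150 to 0.277. The labels do not say what the numbers mark. Arrays numbered 5 to 8 had a median of 5243 detected probes, against 6140 for arrays 1 to 4, and the part of this in the split was not tested. Stearate arrays 5 to 8 had 3090 to 4632. The deposited intensity of Klf5 on them ran from 2136 to 4847, against 4174 to 5413 on control arrays 5 to 7, and so showed no rise. On arrays 5 to 8 of palmitate and octanoate it ran from 4828 to 7715 and from 4726 to 18890.

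Klf10, a TGF-beta-inducible repressor whose loss enlarges the heart in male mice, was near the detection limit. It was detected on 2 of 8 octanoate, 3 of 8 palmitate, 4 of 8 stearate, 5 of 8 oleate, 4 of 7 linoleate and 1 of 7 control arrays. Its level ran from 6.46 over 6.85 to 7.77 under palmitate, from 6.46 over 6.94 to 7.80 under stearate and from 6.08 over 6.22 to 6.59 in control arrays, with overlap in both. Klf10 passed the detection filter mostly through fatty acid arrays. The differences from control were 0.75 ± 0.23 under palmitate (adjusted p = 0.0275) and 0.66 ± 0.23 under stearate (adjusted p = 0.0481). Before background correction and normalization the median deposited intensities were 224 under palmitate, 229 under stearate and 231 in control, and so showed no rise. Oleate and linoleate differed by 0.78 (95% interval 0.32 to 1.25, adjusted p = 0.166) and 0.72 (0.25 to 1.20, adjusted p = 0.363), and octanoate by 0.14 (-0.32 to 0.61).

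Neither call of Klf10 was steady. The palmitate call was lost without control array 2, 4 or 5 or palmitate array 4 or 7 (0.64 to 0.72, adjusted p of 0.0502 to 0.0799). The stearate call was lost without any control array but the one numbered 3, or without stearate array 1, 2, 3 or 5 (0.53 to 0.70, adjusted p of 0.0509 to 0.113). Without all arrays numbered 4 the adjusted p was 0.135 under palmitate and 0.0652 under stearate.

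Klf15, which in mouse heart raises genes of lipid and branched-chain amino acid use and holds back hypertrophic genes, fell under octanoate and stearate. It was highest in control, from 7.45 over 7.83 to 8.35, where all 7 arrays detected it. Under octanoate it ran from 6.39 over 7.04 to 7.60 (5 of 8 arrays detected) and under stearate from 5.89 over 6.42 to 7.33 (3 of 8). All stearate arrays lay below all control arrays, which held for 1.75% of all genes in either direction, and octanoate overlapped control through array 2. The change was -0.90 ± 0.28 under octanoate (1.87-fold lower, adjusted p = 0.0149) and -1.33 ± 0.28 under stearate (2.52-fold lower, adjusted p = 0.00119). The probe was not detected on 5 of 8 stearate arrays, numbers 1 and 5 to 8, so those values lie near background. Stearate arrays 5 to 8 had 3090 to 4632 detected probes of any gene, against 4505 to 7011 on control arrays. The part of this in the Klf15 change was not tested. Within arrays numbered 5 to 8 the stearate change was -1.67 (adjusted p = 0.0052) and the octanoate change -1.05 (adjusted p = 0.0524), and within arrays numbered 1 to 4 they were -0.96 and -0.72 (adjusted p of 0.118 and 0.149).

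Klf15 did not pass under palmitate, oleate or linoleate, where the changes were -0.52 (95% interval -1.09 to 0.05), -0.60 (-1.17 to -0.03) and -0.55 (-1.13 to 0.04). These groups ran from 6.47 to 8.41, from 5.86 to 7.96 and from 6.47 to 7.97, and their upper ends reached into the control range. The order of levels was control, palmitate, linoleate, oleate, octanoate and stearate, and no neighbours passed the test (adjusted p of 0.243 to 1.00).

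Klf9, a factor induced by glucocorticoid and thyroid hormone, passed in no comparison with control in the fit of all arrays without a block. It ran from 9.92 over 10.74 to 11.73 under octanoate and from 9.52 over 10.38 to 10.74 in control, a difference of 0.56 with an adjusted p of 0.0911. Without octanoate array 4 the difference was 0.68 with an adjusted p of 0.0361, and without all arrays numbered 4 it was 0.71 (adjusted p = 0.0354). With numbers 1 to 4 and 5 to 8 as a block it was 0.51 (adjusted p = 0.0296). With each array number as a block it was 0.59 (adjusted p = 0.00243), and palmitate differed from control by 0.44 (adjusted p = 0.0345). In the fit without a block the Klf9 changes under the other fatty acids lay between -0.08 and 0.40. Klf13, a partner of GATA4 in heart development, likewise passed in none, with changes between -0.40 (linoleate, 95% interval -1.30 to 0.49) and 0.50 (octanoate, -0.37 to 1.36). Its group means ran from 7.98 under linoleate to 8.88 under octanoate, with SDs of 0.71 to 1.00 within groups.

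**Figure D3:**
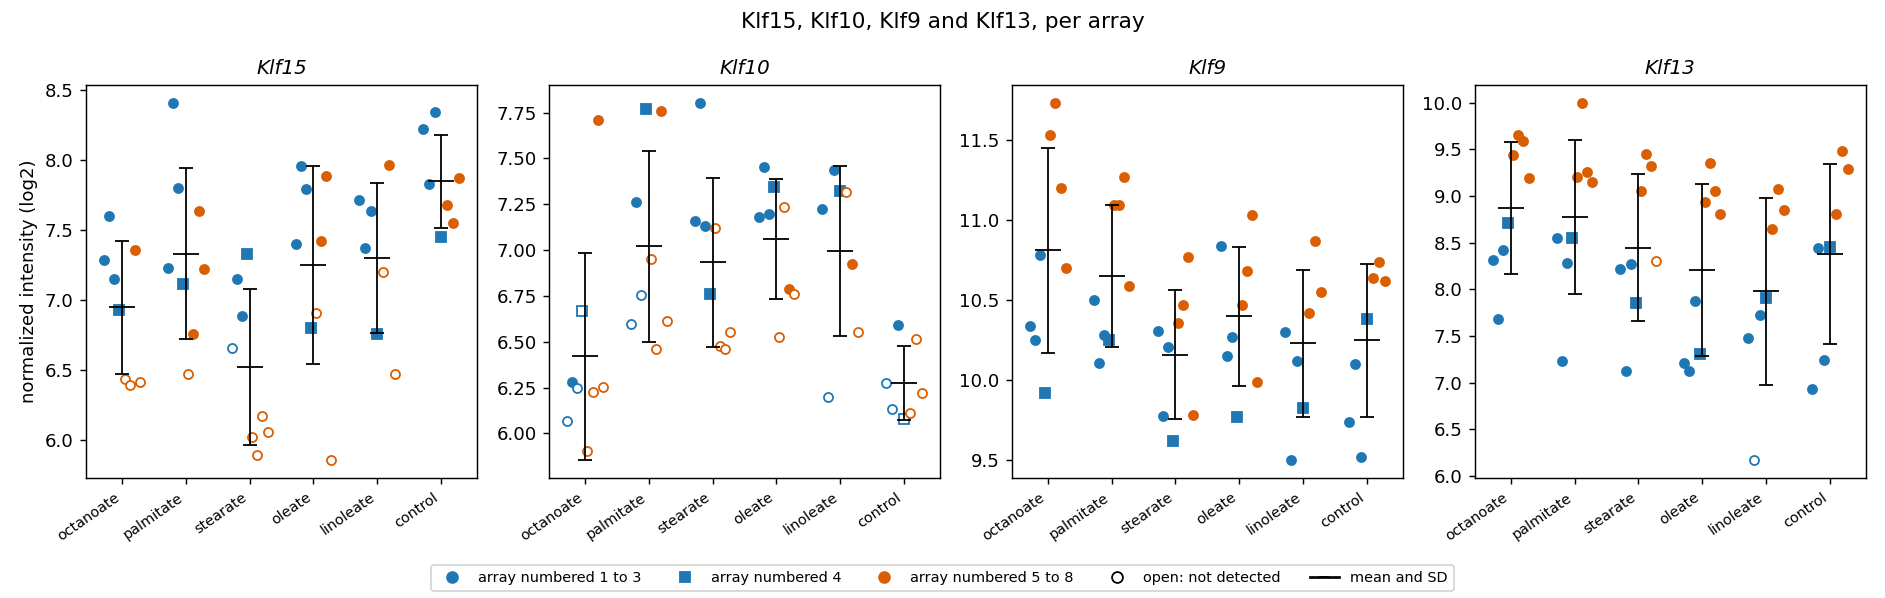
Normalized intensity (log2) of Klf15, Klf10, Klf9 and Klf13 on each array by group, drawn as in the plot of Klf6, Klf4 and Klf5. Stearate arrays of Klf15 all lie below the control arrays, and most Klf10 points are open, which means not detected.

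Fatty acids were then compared with each other in 4 pairs at the same dose and time. In the F test among the 5 fatty acids Klf4, Klf5 and Klf6 passed (adjusted p of 2.501e-05, 0.00954 and 4.078e-05), against 24.5% of all genes. Arrays with the same number deviated together for palmitate and octanoate, stearate and palmitate, and oleate and stearate, so for these pairs the fit with the number as a block is given where it changes a call. The closest array of the other group was the same-numbered one for 7, 3 and 5 of 8 arrays, in that order.

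Palmitate differs from octanoate by a longer saturated chain. Between these fatty acids 0 of 7 members passed, against 2.23% of all genes (1.41% higher, 0.821% lower). With the block 0 members passed as well, beside 408 of all 7182 genes. For 0 members did the arrays of these groups not overlap, against 0.627% of all genes. The nearest to a difference were Klf10, higher under palmitate by 0.60 (95% interval 0.16 to 1.05, adjusted p = 0.166), and Klf4, lower by 0.42 (change -0.42, interval -0.91 to 0.06, adjusted p = 0.520). Klf10 was higher under palmitate in 8 of 8 same-numbered pairs, and without octanoate array 7, its highest there, the difference was 0.79 with an adjusted p of 0.0296. The Klf6 difference was 0.02 with an interval of -0.58 to 0.62. With the block and only these 2 groups in the fit, Klf4 (adjusted p = 0.0274) and Klf10 (adjusted p = 0.00627) passed, beside 1272 of all 7182 genes.

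Stearate, with a chain longer again, differed from palmitate in 0 of 7 members, against 4.18% of all genes (1.1% higher, 3.08% lower). With the block 2 members passed, beside 815 of all 7182 genes, and both were lower under stearate. These were Klf9 (-0.49 ± 0.15, adjusted p = 0.0278, lower in 8 of 8 pairs) and Klf15 (-0.81 ± 0.22, adjusted p = 0.0127, lower in 7 of 8). The pair that ran the other way for Klf15 was number 4, and leaving out stearate array 4 gave -0.93 with an adjusted p of 0.0385 without the block. Leaving out palmitate array 5 gave -0.93 with an adjusted p of 0.0475.

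Oleate and stearate differ by the double bond of oleate, and here Klf6 and Klf4 passed. Klf6 was lower under oleate by 1.15 on the log2 scale (-1.15 ± 0.30, 2.22-fold, adjusted p = 0.0103) and Klf4 by 0.82 (-0.82 ± 0.24, 1.77-fold, adjusted p = 0.026). These 2 of 7 members were lower, against 2.27% of all genes, and 0 were higher, against 4.65% (6.92% either way). Oleate and stearate arrays were without overlap for 0 members, against 0.613% of all genes. Klf6 reached 11.21 under oleate, on array 4, above the lowest stearate array at 10.27. It was lower under oleate in 7 of 8 pairs, the exception being number 4. Within arrays numbered 5 to 8 Klf6 differed by -1.40 (adjusted p = 0.0104) and Klf4 by -0.99 (adjusted p = 0.044), and within arrays numbered 1 to 4 by -0.90 and -0.66 (adjusted p of 0.652 and 0.693). Klf4 was lower in 8 of 8 pairs, though its call was lost (-0.78 to -0.68, adjusted p of 0.0538 to 0.0668) without oleate array 6 or 8 or stearate array 2 or 7. Before background correction and normalization the median deposited intensity of Klf4 was 405.5 under stearate and 431.5 under oleate, and so showed no fall. The medians of Klf6 were 1410 and 851.7. Stearate arrays 5 to 8 had only 3090 to 4632 detected probes, and the part of this in both differences was not tested.

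Klf5 differed between oleate and stearate by -1.55 ± 0.51 (95% interval -2.58 to -0.52) with an adjusted p of 0.0533. With the number as a block over all arrays the same difference had an SE of 0.26 and an adjusted p of 5.575e-05. With the block and only these 2 groups in the fit the adjusted p was 0.00315. The difference ran downward in 7 of 8 pairs, again except number 4. Without the block it passed when stearate array 4 was left out (-1.90, adjusted p = 0.00893), and likewise without stearate array 2 or oleate array 5, 6 or 8 (-1.74 to -1.67, adjusted p of 0.0311 to 0.049). Klf15 was higher under oleate by 0.73 ± 0.22 with the block (adjusted p = 0.0188, higher in 6 of 8 pairs), against an adjusted p of 0.0931 without it. With the block and only these 2 groups its adjusted p was 0.0462. Leaving out stearate array 4 or oleate array 8 gave Klf15 changes of 0.85 and 0.93 (adjusted p of 0.0406 and 0.0183). With the block, 4 of 7 members thus passed between oleate and stearate, beside 999 of all 7182 genes. Linoleate has a further double bond. Between linoleate and oleate 0 members passed, and 0% of all genes, and for 0 members did the arrays not overlap, against 0.0139% of all genes, with intervals for Klf6 of -0.20 to 1.05 and for Klf4 of -0.24 to 0.76.

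**Figure D4:**
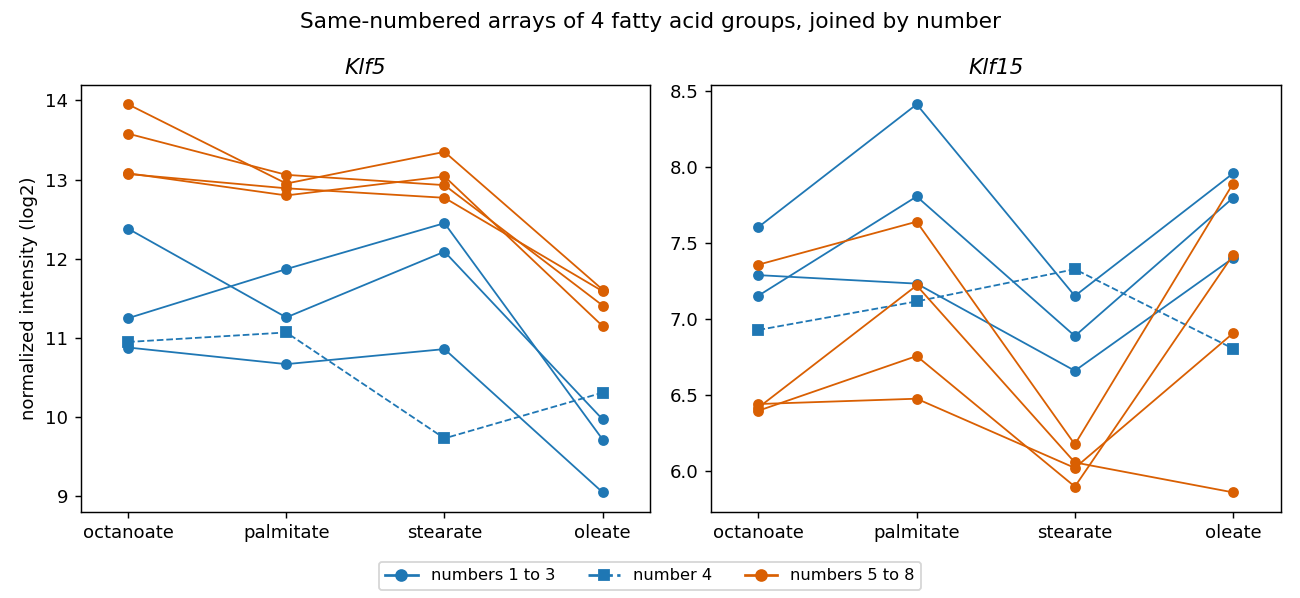
Normalized intensity (log2) of Klf5 and Klf15 under octanoate, palmitate, stearate and oleate, with arrays of the same number joined by a line. Klf5 is lower under oleate than under stearate along all lines but the dashed one, number 4, and Klf15 is lower under stearate than under palmitate along all lines but that one.

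The other genes of the family and of its pathways were taken from lists, chosen like the members with earlier results of these data known, and are given as counts beside the shares of all genes above. Of 16 other KLF and SP genes 15 were on the array and only Sp3, a GC-box factor of the sister family, was detected on enough arrays to be tested (25 of 46). It passed in 0 of the 9 comparisons. Of 12 cofactors and ubiquitin ligases that act with the family 9 were tested, and 2 passed under octanoate, the deacetylases Hdac2 (0.75 ± 0.23) and Hdac3 (-0.53 ± 0.19). Under stearate the corepressor Sin3a was lower (-0.74 ± 0.26, detected on 2 of 8 stearate and 5 of 7 control arrays), and 0 passed elsewhere.

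Genes tied to KLF15 in mice numbered 20, of which 16 were tested. The list holds genes that KLF15 raises together with hypertrophic genes, such as Nppb, that it holds back. Its counts of rises and falls therefore have no single direction relative to KLF15. Under octanoate 1 rose and 7 fell, the largest falls being Bcat2, which starts breakdown of branched-chain amino acids (-1.47 ± 0.23), Kcnip2, a subunit of the transient outward potassium channel (-1.38 ± 0.33), and Gpt, alanine transaminase (-1.06 ± 0.22). Under palmitate 4 rose and 3 fell, led by Pdk4, which shuts off pyruvate oxidation (4.13 ± 0.46), and the natriuretic peptide gene Nppb (2.33 ± 0.47), with Gpt lower (-1.001 ± 0.22). Under stearate 3 rose and 1 fell, led by Pdk4 (4.20 ± 0.46) and Nppb (2.56 ± 0.47). Under oleate and under linoleate 2 rose, Pdk4 (4.58 ± 0.46 and 3.67 ± 0.48) and Cpt1b, the muscle carnitine palmitoyltransferase (0.95 ± 0.15 and 1.01 ± 0.15), with Klf15 itself not passing in either. Between palmitate and octanoate 6 were higher and 0 lower, and between oleate and stearate 1 was higher and 2 lower, Nppb (-2.85 ± 0.46) and the matrix protein gene Ccn2 (-1.19 ± 0.19). Slc2a4, the insulin-responsive glucose transporter, fell under octanoate (-0.89 ± 0.25) and stearate (-0.77 ± 0.25), where Klf15 fell, and under palmitate (-0.84 ± 0.25), where Klf15 did not pass, and was detected on 2, 2 and 1 of 8 arrays there, against 6 of 7 control arrays. Bcat2 fell under octanoate and palmitate (-0.69 ± 0.23) and did not pass under stearate, and Gpt did likewise. These 3 were singled out after their values were seen.

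Of 10 genes tied to KLF5, 6 were tested, and its known target Ppara was detected on 2 of 46 arrays and not tested. Under octanoate, where Klf5 rose, Lpl, lipoprotein lipase (-0.85 ± 0.22), and Cpt1b (-0.42 ± 0.15) fell and 0 rose. Cpt1b alone of the list passed under palmitate (0.65 ± 0.15), oleate and linoleate, and 0 passed under stearate. Of the endothelial genes tied to KLF2 and KLF4, Vcam1, an adhesion molecule, rose under octanoate (1.78 ± 0.30, detected on 8 of 8 octanoate and 3 of 7 control arrays), and was lower under palmitate than under octanoate (-1.59 ± 0.29).

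Klf4 and Klf6 are often assigned to the early response genes, which were listed with the AP-1 subunits. Of 14 tested, 6 rose under octanoate, 6 under palmitate and 8 under stearate, 0 fell, and 0 passed under oleate or linoleate. Fosl1, an AP-1 subunit, rose by 2.62 ± 0.37, 2.72 ± 0.37 and 2.07 ± 0.37 under octanoate, palmitate and stearate, and the stress factor Atf3 by 2.46 ± 0.42, 2.28 ± 0.42 and 2.06 ± 0.42. The third in size was Myc under octanoate (1.46 ± 0.29) and palmitate (1.94 ± 0.29), and Fos under stearate (1.80 ± 0.47). Between oleate and stearate 7 were lower, led by Atf3 (-2.10 ± 0.40), Egr1 (-2.08 ± 0.39) and Fos (-1.97 ± 0.45), and 0 were higher.

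Of the 8 tested TGF-beta response genes, the list closest to Klf10 and Klf6, 2 rose and 1 fell under octanoate, 2 rose under palmitate, and 3 rose and 1 fell under stearate. Of these, Ccn2 rose under palmitate (0.70 ± 0.19) and, outside the 3 largest there, under stearate (0.78 ± 0.19). The receptor gene Tgfbr1 rose under stearate (0.94 ± 0.27, detected on 5 of 8 stearate and 3 of 7 control arrays). The decoy receptor gene Bambi fell under octanoate (-1.16 ± 0.23) and stearate (-0.79 ± 0.23). Between palmitate and octanoate 2 were higher, Ccn2 (1.075 ± 0.19) and Bambi (0.97 ± 0.23), and between oleate and stearate only Ccn2 passed, lower. Of 11 glucocorticoid-induced genes, the list closest to Klf9 and Klf15, Sgk1, a kinase of ion transport, rose under octanoate (2.30 ± 0.36), palmitate (2.14 ± 0.36) and stearate (2.61 ± 0.36). Tsc22d3, another such gene, fell under octanoate (-0.88 ± 0.24), and in all 2 rose and 1 fell there, 2 rose under palmitate, and 1 rose and 1 fell under stearate. Of 8 clock genes 2 rose and 1 fell under octanoate, led by Bhlhe40 (1.09 ± 0.34), and 1 fell under stearate, Tef (-0.57 ± 0.18), which was detected on 0 of 8 stearate and 4 of 7 control arrays.

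Markers of cell types moved with some of these groups. Under octanoate 4 of 13 heart muscle markers were lower and 0 higher, among them Pln (-1.62 ± 0.41) and Myh7 (-1.41 ± 0.33), and the summed level of all 13 ran from 182800 to 233500 intensity units, against 253900 to 314700 in control. The macrophage marker Cd68 was higher under octanoate (1.22 ± 0.22) and palmitate (0.70 ± 0.22), while the defining markers Ptprc, Cd163, Itgam and Tyrobp were detected on 0 arrays. Cd68 itself was detected on 8 of 8 octanoate, 4 of 8 palmitate and 1 of 7 control arrays, so most of its control values lie near background. The sum of the 2 tested macrophage markers ran from 214 to 344 under octanoate, from 151 to 278 under palmitate and from 129 to 212 in control. Under stearate the pericyte marker Cspg4 (-2.12 ± 0.32) and the fibroblast marker Dcn (-1.14 ± 0.39) were lower. Of 7 smooth muscle and pericyte markers Cspg4 alone was tested, and it was detected on 2 stearate and 7 control arrays. Of the 6 tested fibroblast markers Dcn alone passed under stearate. The sum of these 6 ran from 2095 to 5106 there, against 2499 to 8753 in control. Under palmitate Cspg4 (-1.02 ± 0.32) and the heart muscle marker Myl2 (-0.98 ± 0.31) were lower, and between palmitate and octanoate Myh7 was higher (1.21 ± 0.31). Between stearate and palmitate Myl2 was higher (1.45 ± 0.30), while Cspg4 (-1.10 ± 0.31) and Cd68 (-0.95 ± 0.21, detected on 0 of 8 stearate arrays) were lower. Between oleate and stearate, where Klf6 and Klf4 were lower, Cspg4 was higher (1.80 ± 0.31), and Myl2 (-1.40 ± 0.30) and Tnni3 (-0.40 ± 0.10) were lower. The part of these markers in the results of the members was not tested, and in such bulk samples fewer cells of a type and less RNA per cell cannot be told apart.

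The scaling between arrays bears on 7 of the 12 calls. Under median scaling in place of quantile normalization the median log2 change of all genes against control moved to -0.49 under stearate, -0.22 under linoleate, -0.13 under palmitate and -0.10 under oleate, and to -0.02 under octanoate. Relative to that shift Klf6 stood 1.38 higher and Klf15 0.87 lower (-0.87) under stearate, with no member's called direction turned. The Klf6 change itself was 0.89 there with an adjusted p of 0.188, and that of Klf15 -1.36 with an adjusted p of 0.0113. Between oleate and stearate, where the median of all genes moved to 0.41, Klf6 differed by -0.66 (adjusted p = 0.378) and Klf4 by -0.20 (adjusted p = 0.767), so that both calls were lost, and relative to that median they stood at -1.08 and -0.61. The other calls lost under median scaling were those of Klf15 under octanoate (-0.80, adjusted p = 0.208), of Klf4 (0.87, adjusted p = 0.335) and Klf10 (0.68, adjusted p = 0.255) under palmitate and of Klf10 under stearate (0.35, adjusted p = 0.414). Under median scaling 33 genes were higher and 1829 lower under stearate, beside 301 and 640 with quantile normalization. Under palmitate they were 71 and 133 beside 381 and 414, between stearate and palmitate 5 and 497 beside 79 and 221, and between oleate and stearate 760 and 26 beside 334 and 163. Between palmitate and octanoate they were 19 and 18 beside 101 and 59, and under linoleate 7 and 1 beside 24 and 10.

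The genes whose levels ran most like those of the 5 members with an F test call were found by Pearson correlation over the 46 arrays, which share groups, array numbers and background, and are given as a description. Klf4 ran closest to Gnl3 (r = 0.88), Abhd17b and Dnajb9 (0.868 each), and Klf6 to Otud1 and Dnajb9 (0.938 each) and Abhd17b (0.926). Dnajb9 and Abhd17b thus stood among the closest genes of both. Klf5 ran closest to Ccdc86 (0.931), Zeb1 (0.924) and Vash2 (0.908). Klf15 ran closest to Hacl1 (0.86), Cpped1 (0.821) and Boc (0.813), and Klf10, near the detection limit, reached at most 0.675 (Etfdh).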

How the data were processed

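RNA of 46 samples was measured on Illumina rat BeadChips with 1 array per sample. The deposited table gives each probe's mean bead intensity, deposited as non-normalized, and its detection p-value; the submitters' processing notes name BeadStudio 3. A series table by the authors holds intensities of the same arrays brought to nearly 1 distribution, and each of its 46 columns matched its own array best. Array number limits the precision. Probes were named through RefSeq accessions, symbols and synonyms of the GRCr8 assembly, used for names alone; 17288 of 22517 matched, 5032 kept the file's symbol and 197 had none. Intensities were background-corrected in limma 3.58.1 (R 4.3.3) by the normal-exponential model with negative controls inferred from the detection p-values (offset 16). Quantile normalization and a log2 transform followed. Kept were the 7312 probes detected (p under 0.01) on 7 arrays or more, and the brightest stood for its gene (7182 genes). A model with 6 group means (empirical Bayes with trend) gave two-sided tests, Benjamini-Hochberg adjusted over all genes of a comparison, with a threshold of 0.05; 95% intervals are unadjusted. The fit was tested on simulated data. The members and lists were chosen with earlier results of these data known, and up to 3 called genes per list were named by size of change; 1 gene of these lists is not reported here.

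Same-numbered arrays correlated in their deviations from group means in all 8 pairs of 3 comparisons, with r of 0.326 to 0.874 for palmitate with octanoate, 0.137 to 0.753 for stearate with palmitate, and 0.178 to 0.849 for oleate with stearate. The main fit has no block in any comparison. For these 3 comparisons a fit with the number as a block is given beside it, made over all arrays unless only the groups compared are named. For the other comparisons some pairs were at or under 0.1. Raw log2 intensities correlated at 0.880 to 0.992 within groups, and 0 pairs of arrays were identical. Alternatives were median scaling, an offset of 50, leaving out the background correction or the detection filter, the mean of probes, the authors' values, the replicate block, only the groups compared and each array left out. Leaving out the arrays numbered 4, numbers 1 to 4 and 5 to 8 as a block or apart, the block within the groups compared and the signal range as covariate were added after seeing the data.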

Additional observations from a re-analysis of the deposited data

Results flagged for a closer look

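Among 42 sets of 7 or 8 arrays (7 members in 6 groups), 2 held an array far from the others by Dixon's test, and chance flags about 1 in 20 groups. Klf6 on oleate array 4 was at 11.21, above the next array at 9.73 and the lowest at 8.89, the gap being 0.638 of the range. Klf10 on octanoate array 7 was at 7.71, above the next at 6.67 and the lowest at 5.90, the gap being 0.576 of the range.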

How the results depend on the processing

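No member's called direction turned under any alternative. Counts of members called are given here as the count under the alternative beside the reported one. Median scaling gave 1 for 3 under palmitate, 1 for 3 under stearate, 1 for 0 between stearate and palmitate, 0 for 2 between oleate and stearate and 5 for 3 among fatty acids. The replicate block gave 5 for 3 under palmitate, 5 for 3 under stearate, 2 for 0 between stearate and palmitate, 4 for 2 between oleate and stearate and 6 for 3 among fatty acids; with only the groups compared it gave 1 under palmitate, 2 between palmitate and octanoate, 3 between stearate and palmitate, 4 between oleate and stearate and 6 among fatty acids. Numbers 1 to 4 and 5 to 8 as a block gave 5 under stearate, 1 between stearate and palmitate, 4 between oleate and stearate and 6 among fatty acids. Within numbers 1 to 4 the counts were 1 for 4 under octanoate, 1 under palmitate, 1 under stearate, 0 between oleate and stearate, 1 for 5 in the test of any fatty acid and 0 among fatty acids. Without the arrays numbered 4 there were 1 between stearate and palmitate and 4 between oleate and stearate. Without the detection filter there was 1 between oleate and stearate. With only the groups compared there was 1 there and 1 for 0 under oleate, which the signal range as covariate also gave (1). Leaving out each array gave 3 to 5 under octanoate, 2 to 3 under palmitate, 2 to 4 under stearate, 0 to 1 between palmitate and octanoate and between stearate and palmitate, 1 to 4 between oleate and stearate, 3 to 4 among fatty acids and 5 throughout for any fatty acid. The counts of the other comparisons did not change by more than 1.5 times. No background correction, an offset of 50 and the authors' values each lost 1 call of single members, Klf10 under stearate, and the mean of probes lost 0. The cause of these changes was not tested.

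Over all genes, calls under the alternatives other than single arrays ran from 343 to 2785 under octanoate (1777 reported), 72 to 1640 under palmitate (795), 91 to 1862 under stearate (941), 13 to 72 under oleate (41) and 8 to 66 under linoleate (34). They ran from 16 to 1272 between palmitate and octanoate (160), 0 to 1315 between stearate and palmitate (300), 13 to 1092 between oleate and stearate (497), 112 to 3279 for any fatty acid (2065) and 70 to 3807 among fatty acids (1760), and reached 2 between linoleate and oleate (0, with limma; a slide or scan block was not run because the files used here name none). Klf10 was not detected on most arrays, nor Klf15 on 5 of 8 stearate arrays, which limits their changes.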
